A study of Arabidopsis thaliana with 12 samples.

Results

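KAT5 (AT5G48880) and KAT2 (AT2G33150, named PKT3 in RefSeq) are 2 of the 37865 genes with a row in at least 1 of the 2 gene tables of this Arabidopsis thaliana study, which list 32833 genes each. Both encode 3-ketoacyl-CoA thiolases, and both were chosen by their ABA minus mock values in these data, the exon 2 inclusion level of KAT5 and the gene level of KAT2. All of their splicing events were taken, 50 of 196029 in Kn-0 and 51 of 192295 in Col-0. Polyadenylated RNA of whole seedlings aged 4 days was compared in 4 groups with 3 biological replicates each, 12 libraries in all. Kn-0 ABA and Kn-0 mock seedlings belong to the natural accession Kn-0. Col-0 ABA and Col-0 mock seedlings belong to Col-0, the reference strain. ABA groups spent 3 h on medium with 5 µM abscisic acid, a hormone of drought and seed maturation, and mock groups spent 3 h on control medium. All groups had grown on filter paper in continuous light, and the labels name no transgene or mutation.

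Fatty acid beta-oxidation in plants takes place in the peroxisome and feeds the seedling from its stored oil. Acyl-CoA oxidases open each round, multifunctional proteins carry out the middle steps, and 3-ketoacyl-CoA thiolases close it by releasing acetyl-CoA. KAT2 is the main thiolase of seedling oil breakdown and also serves jasmonate synthesis, KAT1 is a close relative, and KAT5 is known to give both a peroxisomal and a cytosolic protein. Peroxisomal thiolases carry a type 2 peroxisome targeting signal (PTS2) near the N terminus, which the receptor PEX7 binds and the protease DEG15 removes after import.

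The codons of this signal are shown because the annotated transcripts of KAT5 differ in whether they hold them. They were read from RefSeq TAIR10.1, whose nuclear coordinates are those of TAIR10, and the capitals mark the first 2 and last 2 of the 9 codons of the signal.
KAT5, chr5:19816977-19817003, minus strand: AGACAAaagatattgcttcgtCATCTC
KAT2, chr2:14050939-14050965, minus strand: AGACAAcgcgttcttcttgagCATCTC
KAT1, chr1:1321959-1321985, plus strand: AGACAAaggatactgcttcgtCATCTT
In all 3 genes the signal begins at codon 7. Over the whole coding sequence KAT5 was 71.5% identical to KAT2 and 71.2% to KAT1, while KAT2 and KAT1 were 84.8% identical. The longest identical stretch was 28 bases between KAT5 and KAT2 and 53 bases between KAT2 and KAT1.

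KAT5 lies on the minus strand at chr5:19814395-19817955 and has 4 annotated transcripts. In 3 of them the coding sequence has 1374 bases (457 codons) and includes the PTS2. Its start codon lies in a separate exon 2 in 2 of these, and in the other one exons 1 and 2 and the intron between them form a single first exon. In the fourth, exon 1 is joined directly to exon 3, translation starts at a downstream codon, and the coding sequence has 1245 bases (414 codons) with no PTS2. The coding part of exon 2 and the part of exon 3 from the downstream start are shown because they separate the 2 forms. Capitals mark the start codons and, in exon 2, the PTS2 codons.
KAT5 exon 2, chr5:19816923-19817021: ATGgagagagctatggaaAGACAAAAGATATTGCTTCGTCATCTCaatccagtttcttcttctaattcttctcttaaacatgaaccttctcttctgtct
KAT5 exon 3 from its start codon, chr5:19816741-19816775: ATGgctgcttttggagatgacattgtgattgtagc
Exon 2 ends at 1 annotated donor site and begins at several acceptor sites, which gave forms of 107 and 199 bases in both accessions and of 322 bases in Col-0. The splice sites are shown with the first 2 or last 2 intron bases in capitals.
exon 1 donor, chr5:19817767-19817775: cggGTaact
exon 2 donor, chr5:19816917-19816925: tctGTaagt
acceptor of the 107-base exon 2, chr5:19817027-19817044: aagtgtttgcaacAGaga
acceptor of the 199-base exon 2, chr5:19817119-19817136: tcttcccctttccAGaaa
acceptor of the 322-base exon 2, chr5:19817242-19817259: atacgacaagacaAGgtt
exon 3 acceptor, chr5:19816803-19816820: ttttgttaattttAGcct
These sequences describe Col-0. The Kn-0 splicing tables use coordinates of another assembly, not given in the sources used here, so no Kn-0 sequence is shown.

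**Figure D1:**
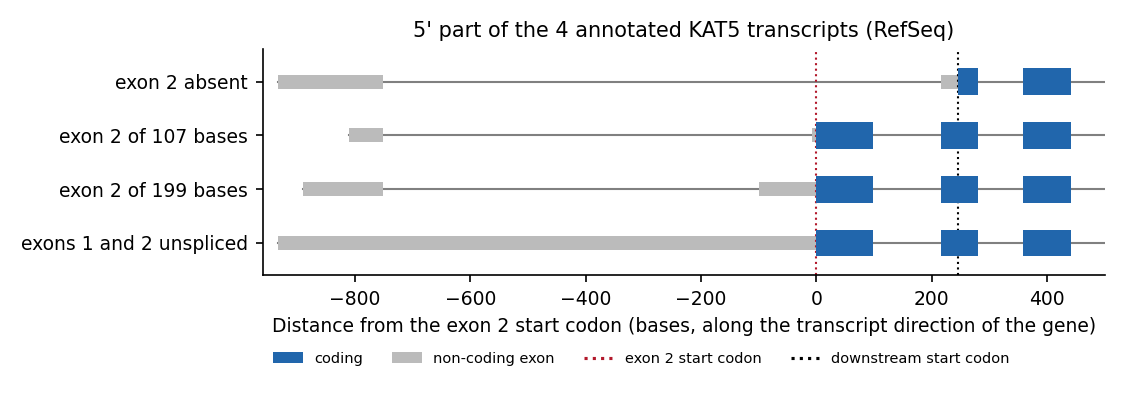
The 5′ part of the 4 annotated KAT5 transcripts, drawn by distance in bases from the exon 2 start codon, with coding parts in blue and non-coding exon in grey. The start codon lies in a separate exon 2 in 2 transcripts and in an unspliced first exon in 1, and the transcript that lacks exon 2 begins its coding part at the downstream start codon in exon 3.

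The inclusion level of an exon is the authors' estimate of the share of transcripts that hold it. It was computed from reads across splice junctions and corrected for the length of each form, which allows for both junctions of the exon. For exon 2 of KAT5 in its 107-base form it was 0.711, 0.538 and 0.579 in the 3 Kn-0 ABA libraries, against 0.487, 0.465 and 0.418 in the Kn-0 mock libraries. The lowest Kn-0 ABA library lay above the highest Kn-0 mock library, and the first listed Kn-0 ABA library stood apart from the other 2. In Col-0 the level was 0.491, 0.490 and 0.514 in the ABA libraries, against 0.313, 0.303 and 0.358 in the mock libraries. All Col-0 ABA libraries lay above all Col-0 mock libraries. The transcript with the PTS2 codons thus made up a larger share under ABA in both accessions.

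The mean level was 0.609 ± 0.090 in Kn-0 ABA and 0.457 ± 0.035 in Kn-0 mock seedlings (SD, n = 3 each), a difference of 0.153. It was 0.498 ± 0.014 in Col-0 ABA and 0.325 ± 0.029 in Col-0 mock seedlings (SD, n = 3 each), a difference of 0.174. Without the first listed Kn-0 ABA library the Kn-0 difference was 0.102. As a plain share of reads, without the length correction, the difference was 0.132 in Kn-0 and 0.177 in Col-0. These values chose the gene, so they are given as a description without a test.

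**Figure D2:**
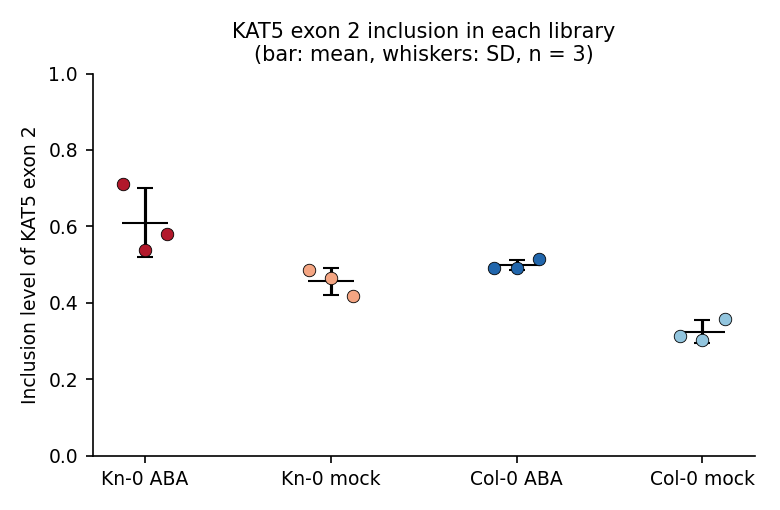
Inclusion level of the 107-base exon 2 of KAT5 (vertical axis, from 0 to 1) in each library of the 4 groups, with bars at the mean and whiskers of 1 SD (n = 3). In each accession the ABA points lie above the mock points, and Kn-0 mock libraries lie between 0.418 and 0.487 where Col-0 mock libraries lie between 0.303 and 0.358.

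The other forms of exon 2 that end at the annotated donor gave nearly the same values and share reads. For the 199-base form the level averaged 0.619 in Kn-0 ABA and 0.464 in Kn-0 mock seedlings, and 0.513 in Col-0 ABA and 0.334 in Col-0 mock seedlings. For the 322-base form of Col-0 it averaged 0.509 under ABA and 0.326 in mock, and for the form in which exons 1 and 2 are not spliced apart it averaged 0.512 and 0.331. These events are 1 observation seen several times and not separate evidence. Most of their inclusion reads came from the exon 2 to exon 3 junction, which all these forms share. The levels therefore do not give the share of each form. In Col-0 that junction had 179, 215 and 240 reads in ABA and 242, 235 and 167 in mock libraries. Inclusion reads of the unspliced form numbered 183, 216 and 240 in ABA and 249, 242 and 168 in mock libraries. Col-0 also listed 3 forms of exon 2 that end 22 bases further on. They had at most 10 inclusion reads a library, mean levels of 0.000 to 0.019 and differences of -0.002, -0.005 and -0.002. Reads at that later donor itself numbered at most 1 a library, so most of these inclusion reads join exon 1 to exon 2.

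The reads behind the levels show which form differed. Reads that join exon 1 directly to exon 3, the form without PTS2 codons, numbered 61, 122 and 121 in Kn-0 ABA libraries and 135, 178 and 167 in Kn-0 mock libraries. In Col-0 they numbered 88, 110 and 106 in ABA libraries and 258, 260 and 156 in mock libraries. Neither accession had an ABA library that reached the lowest mock library.

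In reads per 1000000 junction reads (RPM), the exon 1 to exon 3 junction had 6.90 ± 2.38 RPM in Kn-0 ABA and 10.6 ± 1.57 in Kn-0 mock seedlings (SD, n = 3 each), a log2 ratio of -0.62. In Col-0 it had 6.97 ± 0.740 in ABA and 14.7 ± 4.04 in mock seedlings (SD, n = 3 each), a log2 ratio of -1.07. Without the first listed Kn-0 ABA library the Kn-0 ratio was -0.36, and without the third listed Col-0 mock library, the lowest of its group, the Col-0 ratio was -1.29.

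Reads at the junctions of exon 2 moved less. They numbered 279, 265 and 310 in Kn-0 ABA and 239, 288 and 223 in Kn-0 mock libraries, with a log2 ratio of 0.23 after scaling and groups that overlapped. In Col-0 they numbered 158, 197 and 209 in ABA and 219, 211 and 162 in mock libraries, with a log2 ratio of 0.005 and groups that overlapped. The larger inclusion share under ABA went with fewer reads of the form without exon 2. Scaled values of the 2 accessions rest on separate tables, and no level is compared between them.

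**Figure D3:**
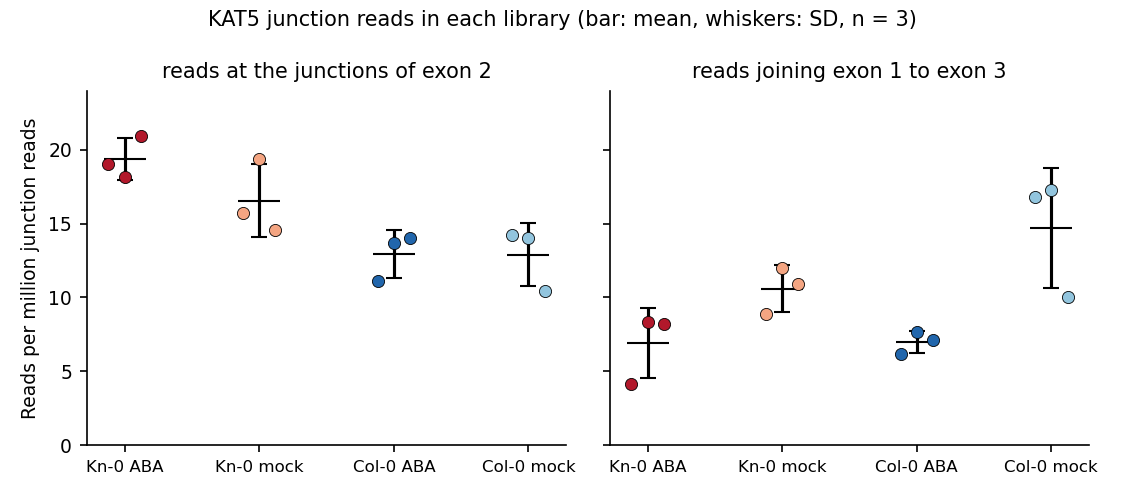
Level in RPM (vertical axis) at the junctions of KAT5 exon 2 (left panel) and at the junction of exon 1 with exon 3 (right panel) in each library, with bars at the mean and whiskers of 1 SD (n = 3). ABA and mock libraries overlap in the left panel and do not overlap within either accession in the right panel.

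Few of the reads counted for exon 2 tied it to exon 1. In Kn-0 the form that joins exon 1 to the 199-base acceptor and keeps the next intron had 10, 24 and 33 inclusion reads in ABA libraries and 19, 25 and 19 in mock libraries, a count that can also hold unspliced reads at the edge of exon 3. In Col-0 the intron between exon 1 and the 322-base exon 2 had 0 spliced reads in every ABA library and 2, 0 and 0 in the mock libraries. In Kn-0 the exon 2 to exon 3 junction had 304, 299 and 336 reads in ABA and 257, 316 and 239 in mock libraries. The 199-base form counts reads at that junction and at the one to exon 1. Its inclusion reads numbered 304, 308 and 341 in ABA and 266, 323 and 241 in mock libraries. In Col-0 its inclusion reads numbered 179, 217 and 246 in ABA and 249, 240 and 176 in mock libraries, near the junction counts above. Few reads thus joined exon 1 to exon 2. Whether transcripts with exon 2 start in or just before it was not tested. The length correction allows for both junctions, but most inclusion reads came from the exon 2 to exon 3 junction. The level is therefore not a direct share of transcripts with exon 2.

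The accession difference in exon 2 was not used to choose the gene and was tested. Inclusion was higher in Kn-0 than in Col-0 mock seedlings by 0.132, which is 0.83 ± 0.14 in log2 odds (estimate ± SE, limma adjusted p = 1.09e-05). All 3 Kn-0 mock libraries lay above all 3 Col-0 mock libraries. Under ABA it was higher in Kn-0 by 0.111, or 0.56 ± 0.17 in log2 odds (limma adjusted p = 0.028), and again all 3 Kn-0 libraries lay above all 3 Col-0 libraries. P-values throughout rest on the spread between the 3 biological replicates within groups. In limma this spread was pooled over the 4 groups and drawn towards that of all tested events, with 53.65 prior degrees of freedom. The spread of a single group or event thus had limited weight. The ABA result rested on few libraries. Without the first listed Kn-0 ABA library the difference was 0.060 (limma adjusted p = 0.28), and without the first or second listed Col-0 ABA library it was 0.107 with limma adjusted p-values of 0.0725 and 0.111.

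The fit covered 24144 events paired between the accessions. At an adjusted p of 0.05 and a difference of at least 0.1, it called 1.76% of them higher and 1.51% lower in Kn-0 in mock seedlings, and 1.68% higher and 1.43% lower in Kn-0 under ABA. Of 11 paired KAT5 events 4 passed the filter on reads and inclusion level, and 2 of these, the 107-base and 199-base forms of exon 2, were called in each condition. Of 8 paired KAT2 events 1 passed the filter and was not called. Libraries of the 2 accessions were counted on different assemblies, and the part of this in the accession difference was not tested.

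The rest of KAT5 showed small differences. In Kn-0, 21 of 21 KAT5 events averaged 10 or more junction reads a library, and 1 of them met the authors' rMATS false discovery rate of 0.05 with a difference of at least 0.1, higher under ABA. Over all Kn-0 events 0.0557% were called higher and 0.0586% lower. In Col-0, 26 of 28 KAT5 events had that many reads and 4 were called, all higher under ABA, where 0.0726% of all Col-0 events were called higher and 0.0891% lower. Called events were all forms of exon 2, and the rule used this contrast, so nothing is read from the counts. The 107-base form in Kn-0, with a difference of 0.153, was not called, while the 199-base form, with 0.155, was.

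Outside the called event and the 107-base form in Kn-0, and outside the 4 called events in Col-0, among events with enough reads, the differences of KAT5 lay between -0.008 and 0.033 in Kn-0 and between -0.026 and 0.026 in Col-0. The largest in Kn-0 belonged to the form just described that keeps the intron between exons 2 and 3, with levels of 0.076, 0.090 and 0.120 in Kn-0 ABA and 0.066, 0.066 and 0.054 in Kn-0 mock libraries. Those groups did not overlap, but the levels rest on 10 to 33 inclusion reads a library, which can be unspliced reads. Retention of the same 117-base intron as such was 0.026, 0.041 and 0.058 in Kn-0 ABA and 0.048, 0.050 and 0.051 in Kn-0 mock libraries, which overlapped. The introns of KAT5 that were mostly spliced out were retained at mean levels of 0.004 to 0.050 in Kn-0 and 0.006 to 0.036 in Col-0.

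**Figure D4:**
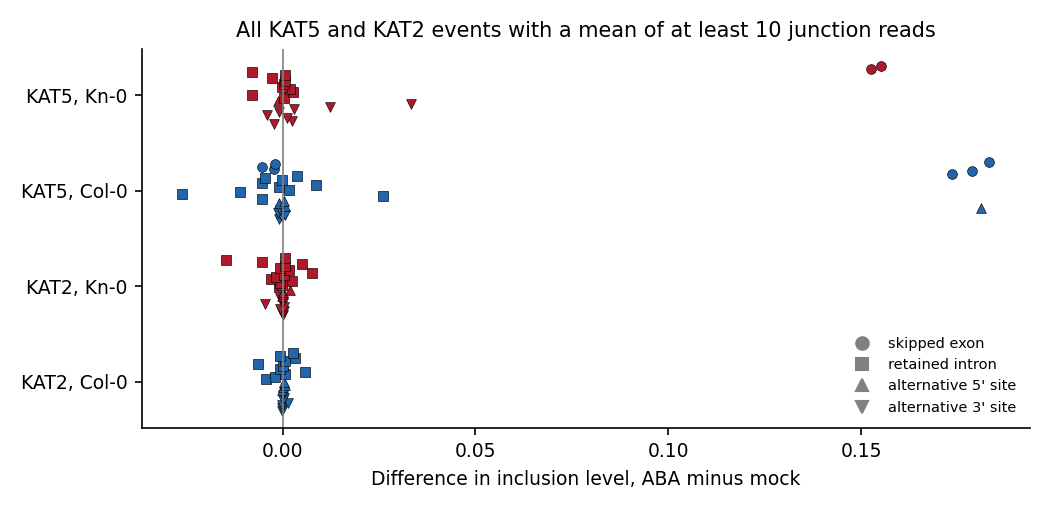
Difference in inclusion level, ABA minus mock (horizontal axis), of every KAT5 and KAT2 event that averaged 10 or more junction reads a library, by gene and accession, with the marker giving the event type. The points at 0.153 and above are forms of KAT5 exon 2, and the others lie between -0.026 and 0.033.

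For KAT2 the differences in form were small and its level was higher under ABA. It lies on the minus strand at chr2:14047478-14051400 with 1 annotated transcript of 13 introns, 1389 coding bases and 462 codons. Its differences in inclusion lay between -0.015 and 0.008 over 28 Kn-0 events and between -0.006 and 0.006 over 23 Col-0 events with enough reads, and none was called. No exon-skipping event was listed for it in either accession.

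Its most retained intron was intron 10, of 167 bases, at chr2:14048711-14048877. Retention was 0.067, 0.067 and 0.072 in Kn-0 ABA and 0.070, 0.074 and 0.065 in Kn-0 mock libraries. In Col-0 it was 0.060, 0.067 and 0.070 in ABA and 0.068, 0.063 and 0.068 in mock libraries. ABA and mock libraries overlapped in both accessions, and the accession difference was 0.003 in mock and 0.003 in ABA seedlings (limma adjusted p = 0.769 and 0.664).

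For level, the most-read event of KAT2 had 3962, 3724 and 3668 junction reads in Kn-0 ABA and 3065, 2665 and 3128 in Kn-0 mock libraries. In RPM this was 258 ± 11.2 in Kn-0 ABA and 195 ± 14.0 in Kn-0 mock seedlings (SD, n = 3 each), a log2 ratio of 0.40. In Col-0 it had 3512, 3309 and 3540 reads in ABA and 2674, 2675 and 2781 in mock libraries, which is 238 ± 8.38 and 177 ± 2.63 RPM (SD, n = 3 each) and a log2 ratio of 0.43. In both accessions every ABA library lay above every mock library. In whole seedlings, more RNA per cell and more cells that make the RNA cannot be told apart.

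KAT5 showed no such separation. Its most-read event had 471, 522 and 573 reads in Kn-0 ABA and 500, 577 and 522 in Kn-0 mock libraries, or 35.5 ± 3.32 and 35.3 ± 3.10 RPM (SD, n = 3 each). In Col-0 it had 474, 479 and 438 reads in ABA and 636, 669 and 458 in mock libraries, or 32.0 ± 2.23 and 38.4 ± 7.90 RPM (SD, n = 3 each). ABA and mock libraries overlapped in both accessions, with the third listed Col-0 mock library well below the other 2 of its group.

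The authors' deposited table of Kn-0 gave log2 fold changes, ABA over mock, of 0.12 ± 0.06 for KAT5 and 0.49 ± 0.06 for KAT2 (± SE). The authors' deposited table of Col-0 gave -0.23 ± 0.14 for KAT5 and 0.51 ± 0.07 for KAT2 (± SE). The 2 accessions thus differed by 0.34 ± 0.16 for KAT5 and by -0.02 ± 0.09 for KAT2 (Kn-0 minus Col-0, ± SE), as descriptions without a test. Per kilobase of exon, the mean normalized count in the authors' deposited table of Kn-0 was 1162 for KAT5, 8005 for KAT2, 957 for KAT1, 846 for AACT1 and 5337 for AACT2. In the authors' deposited table of Col-0 it was 1120 for KAT5, 9111 for KAT2, 1093 for KAT1, 758 for AACT1 and 3913 for AACT2. KAT2 was the most abundant of these 5 thiolases in both tables. AACT1 and AACT2 are acetoacetyl-CoA thiolases, which join acetyl units instead of releasing them.

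Of the other thiolases, AACT2 passed the authors' test and KAT1 and AACT1 did not. The authors' deposited tables gave KAT1 log2 fold changes of 0.02 ± 0.07 in Kn-0 and 0.07 ± 0.08 in Col-0 (± SE, adjusted p = 0.874 and 0.574). The authors' deposited tables gave AACT1 -0.02 ± 0.08 in Kn-0 and 0.12 ± 0.09 in Col-0 (± SE, adjusted p = 0.879 and 0.312). AACT2 rose in both, by 0.13 ± 0.04 in Kn-0 and 0.24 ± 0.06 in Col-0 in the authors' deposited tables (± SE, adjusted p = 0.00493 and 0.000396).

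**Figure D5:**
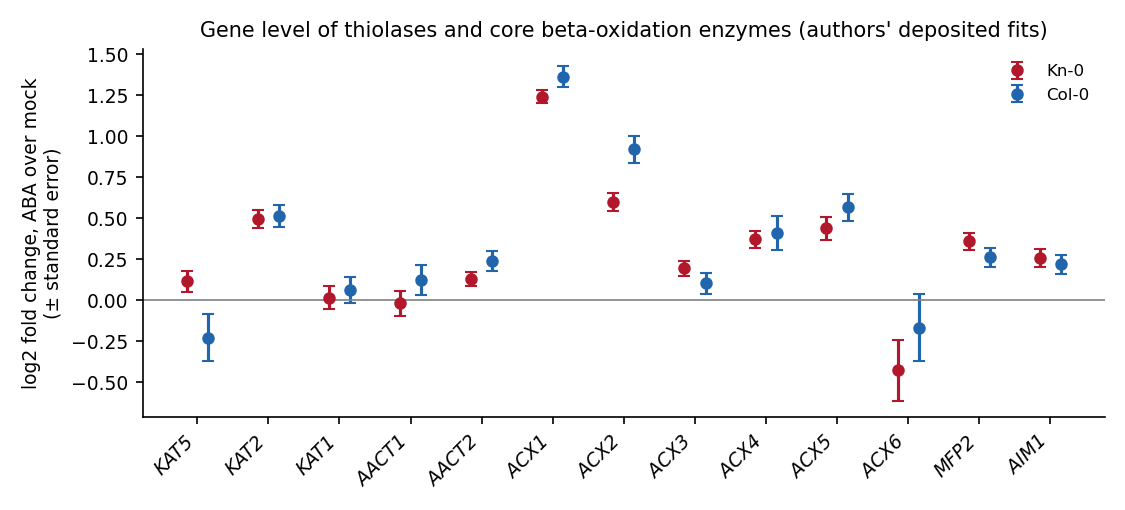
Log2 fold change of gene level, ABA over mock (vertical axis), with its standard error, from the authors' deposited fits for Kn-0 (red) and Col-0 (blue), for 5 thiolases, 6 acyl-CoA oxidases and the multifunctional proteins MFP2 and AIM1. KAT2 lies at 0.49 in Kn-0 and 0.51 in Col-0, KAT5 lies at 0.12 and -0.23, and ACX1 is the highest of these genes.

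Most genes of the beta-oxidation core rose. Of 9 core genes other than KAT2 and KAT5, KAT1 included, 7 rose and 1 fell in Kn-0, and 6 rose and 0 fell in Col-0 at the authors' adjusted p of 0.05 (1 and 3 did not pass). Over all genes 22.9% rose and 21.5% fell in Kn-0, and 19.8% rose and 18.4% fell in Col-0. ACX1, a long-chain acyl-CoA oxidase, rose by 1.24 ± 0.04 in Kn-0 and 1.36 ± 0.07 in Col-0 in the authors' deposited tables (log2, ± SE, adjusted p = 5.85e-212 and 5.25e-95). ACX2, another long-chain oxidase, rose by 0.60 ± 0.05 in Kn-0 and 0.92 ± 0.08 in Col-0 in the authors' deposited tables (log2, ± SE, adjusted p = 2.24e-27 and 1.08e-28). ACX2 was the 1 gene of all lists whose response differed between accessions, with 1.95% of all genes higher and 1.5% lower in their response in Kn-0. The gene that fell in Kn-0 was ACX6, another acyl-CoA oxidase, at -0.43 ± 0.19 in the authors' deposited table (log2, ± SE, adjusted p = 0.0492).

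Over 48 genes of fatty acid use and the peroxisome in 7 lists, 28 rose, 4 fell and 16 did not pass in Kn-0, and 25 rose, 2 fell and 21 did not pass in Col-0. Among all genes tested, 22.9% rose and 21.5% fell in Kn-0, and 19.8% rose and 18.4% fell in Col-0. The median log2 fold change of the 48 genes was 0.22 in Kn-0 and 0.21 in Col-0, against 0.0001 and -0.0005 over all genes tested. The genes that fell were ACX6, PCK1, OPR3 and OPCL1 in Kn-0 and OPR3 and OPCL1 in Col-0. OPR3 and OPCL1 belong to jasmonate synthesis, and PCK1 is the phosphoenolpyruvate carboxykinase of gluconeogenesis.

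Of 8 genes of fatty acid release, activation and peroxisome uptake, 5 rose in each accession. Of 8 auxiliary and hormone-precursor enzymes 4 rose and 2 fell in each. Of 7 glyoxylate cycle and gluconeogenesis genes 5 rose in Kn-0 and 4 in Col-0, with 1 and 0 that fell. The peroxisomal citrate synthase CSY3 led them at 1.38 ± 0.05 in Kn-0 and 1.44 ± 0.06 in Col-0 in the authors' deposited tables (log2, ± SE, adjusted p = 4.15e-203 and 5.26e-111). Of 3 catalases, which remove the hydrogen peroxide made by acyl-CoA oxidases, 2 rose in each accession. Among all genes 22.9% rose and 21.5% fell in Kn-0, and 19.8% rose and 18.4% fell in Col-0. These lists are short.

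Of 11 genes of peroxisome import and PTS2 processing, 4 rose in Kn-0, 3 rose in Col-0 and 0 fell in either. With 22.9% of all genes rising in Kn-0 and 19.8% in Col-0, nothing is read from this count. LON2, a peroxisomal protease, rose by 1.14 ± 0.05 in Kn-0 and 1.33 ± 0.06 in Col-0 in the authors' deposited tables (log2, ± SE, adjusted p = 6.24e-113 and 1.1e-100). The PTS2 receptor PEX7 did not pass in the authors' deposited tables, at 0.13 ± 0.07 in Kn-0 and 0.06 ± 0.09 in Col-0 (log2, ± SE, adjusted p = 0.118 and 0.657). DEG15, which cuts the signal off after import, was at -0.11 ± 0.07 in Kn-0 and -0.09 ± 0.08 in Col-0 in the authors' deposited tables (log2, ± SE, adjusted p = 0.205 and 0.409).

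Neighbouring genes bear on the gene counts of KAT5. SAD1, which encodes an Sm-like RNA-binding protein, lies on the opposite strand and shares 160 bases with the 3′ end of KAT5, and whether the counting used strand is not stated. The authors' deposited tables gave SAD1 a log2 fold change of -0.18 ± 0.07 in Kn-0 and -0.22 ± 0.10 in Col-0 (± SE, adjusted p = 0.016 and 0.0899). The shared stretch does not touch exons 1 to 3. On the other side of KAT5 lies LATE, with a mean normalized count of 9.0 in Kn-0 and 6.2 in Col-0 in the authors' deposited tables. The neighbours of KAT2, AT2G33140 and AT2G33160, had mean normalized counts of at most 2.1 in the authors' deposited tables.

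Over the 12 libraries the genes whose log2 junction-read level was most like that of KAT2, among 10645 genes, were AT1G16840 (Pearson r = 0.989), the cysteine protease gene RD19 (r = 0.985) and AT5G64250 (r = 0.974). The authors' deposited tables gave RD19 a log2 fold change of 0.72 ± 0.06 in Kn-0 and 0.84 ± 0.08 in Col-0 (± SE). For KAT5 they were AT1G74640 (r = 0.837), AT3G15110 (r = 0.800) and WLIM2a (r = 0.797), with levels that spanned at most 5.40 to 5.74, 5.99 to 6.16 and 5.54 to 5.78 on the log2 scale. KAT5 itself spanned 4.77 to 5.49 on that scale. The points share libraries and library totals, levels of both accessions from their separate tables enter r, and the likeness is a description.

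ACGTG, the core of the element that ABA-response factors bind, was searched on both strands of the 250 bases before each annotated start in TAIR10.1. It was absent in KAT5 and KAT2 and had 1 match in KAT1, and 22.9% of 27443 protein-coding genes held it in the same window. The 743 bases between exon 1 and the 107-base exon 2 of KAT5 held 2 matches. A match or its absence says only which letters are in the window.

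The treatment labels were checked on known ABA-responsive genes. The ABA marker genes RD29B and HAI1 rose in the authors' deposited tables, by 6.96 and 6.04 on the log2 scale in Kn-0 and 6.73 and 6.34 in Col-0. Of 4 shoot markers 2 rose and 1 fell in Kn-0 and 1 rose and 1 fell in Col-0. Of 5 root markers 2 fell in Kn-0 and 3 fell in Col-0, and 0 rose in either. Over all genes 21.5% fell in Kn-0 and 18.4% in Col-0. Log2 fold changes of root markers ran from -0.93 to 0.14 in Kn-0 and from -1.20 to 0.11 in Col-0. Those of shoot markers ran from -0.42 to 0.22 in Kn-0 and from -0.35 to 0.22 in Col-0. All 9 markers were detected, shoot markers at mean normalized counts from 136794 up and root markers at 163 to 3447. The part of a shift between shoot and root in the results was not tested. Junction reads over 1 event per gene numbered 14252340 to 15551070 a library.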

How the data were processed

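Per the labels' protocols, polyadenylated RNA of whole seedlings was made into Illumina libraries. The authors' tools, per the submitters' processing notes, were DESeq2, featureCounts and STAR (no versions), with the build TAIR10. The authors' gene tables, per the file headers, hold a mean signal (normalized count), a log2 fold change with its standard error, a Wald score, and a deposited p-value and adjusted p-value. The splicing tables hold junction read counts and deposited inclusion levels of 3 libraries a cell in 4 event types, with the authors' difference score, p-value and false discovery rate. Commas between counts were lost in 62.5% of Kn-0 and 59.7% of Col-0 events. Counts were recovered by fitting the deposited levels within 0.0005, and 0.0612% and 0.0473% of events were left out. The 3 values of a cell carry no replicate number and are named by their place in the cell.

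Coordinates of the Kn-0 splicing tables do not match TAIR10.1: 0.469% of their introns had splice dinucleotides there, against 95.5% for Col-0. Events were therefore paired between accessions by gene, type, strand and spacing of splice sites in place of equal coordinates, which gave 85988 pairs. The accession difference in inclusion was tested with limma 3.58.1 in R 4.3.3 on weighted logits with 0.5 added, in events with at least 10 reads in every library and a mean level of 0.02 to 0.98, with Benjamini-Hochberg adjustment. It was run on simulated data, as was the Wald z test of the difference between deposited fold changes, two-sided and adjusted over 22001 genes. The simulated data held no difference in assembly between accessions, so they say nothing on its part in the results. Junction-read levels use the most-read event of each gene, and across genes these log2 ratios correlated with the deposited changes at r = 0.965 in each accession. No library was a duplicate of another in its group: chi-square values of replicate pairs, divided by their degrees of freedom, lay between 3.21 and 9.99. Libraries of different groups were not compared in this way.

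Members, lists and tests were chosen with earlier results of these data known. Genes named are KAT5, KAT2, the other thiolases, list genes with a log2 change of at least 1 or a difference between accessions, neighbours, and the 3 genes most like each member. PEX7, DEG15 and the genes that fell were named after their values were seen. Alternatives were other read minimums, added counts, a pooled fit, no level filter, other thresholds and each library left out.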

Additional observations from a re-analysis of the deposited data

Results flagged for a closer look

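ACX2 (AT5G65110) was the 1 gene of the 48 in the lists whose ABA response differed between accessions. Its log2 fold change was lower in Kn-0 by -0.32 ± 0.10 (Kn-0 minus Col-0, ± SE, two-sided Wald z test of the difference with an adjusted p of 0.0322). The difference came from 0.60 in Kn-0 and 0.92 in Col-0 in the authors' deposited tables. Without adjustment 2 of the 48 genes had a p under 0.05. Over all 22001 genes 1.95% had a higher and 1.5% a lower response in Kn-0. The cause was not tested.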

How the results depend on the processing

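Higher exon 2 inclusion of KAT5 in Kn-0 mock seedlings kept its direction and its call under every alternative run, with a difference of 0.116 to 0.151 when each library was left out and limma adjusted p-values of 8.82e-07 to 0.000479. The Kn-0 ABA difference of 0.111 did not pass with no filter on mean inclusion (0.111, limma adjusted p = 0.181), and with a library left out it ranged from 0.060 to 0.146 (limma adjusted p = 0.00319 to 0.28); the causes were not tested. The ABA minus mock difference of exon 2 ranged from 0.102 to 0.188 in Kn-0 and from 0.163 to 0.190 in Col-0 with each library left out. Events called by the authors' rMATS test numbered 193 in Kn-0 and 265 in Col-0. They numbered 92 and 140 at a difference of 0.2, 440 and 541 with no minimum of reads, and 114 and 161 at a mean of 20 reads. The Col-0 junction-read ratio of KAT2 was 0.43, and 0.50 as the median over its events. At a log2 change of at least 1, pathway genes that rose numbered 3 in Kn-0 and 3 in Col-0 and 0 fell in either. At an adjusted p of 0.01, 2 fell in Kn-0, and 0 had a lower response in Kn-0 than in Col-0. Junction ratios of KAT5 with each library left out, chosen after seeing the data, ranged from -0.78 to -0.36 in Kn-0 and from -1.29 to -0.94 in Col-0 for the exon 1 to exon 3 junction. For the exon 2 junctions they ranged from 0.14 to 0.35 in Kn-0 and from -0.13 to 0.10 in Col-0. No paired analysis was possible because the 3 values of a cell carry no replicate number, and no replicate block was fitted. The Col-0 event of the intron between exon 1 and the 322-base exon 2 had 0 to 7 unspliced reads a library, too few for a comparison.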
